A study of Arabidopsis thaliana with 9 samples.

Results

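The response of *Arabidopsis* leaves to oviposition by the large white butterfly *Pieris brassicae* was described gene by gene and by gene family, in 3 libraries from oviposited plants and 3 from untreated control plants, which are 6 of the 9 RNA-sequencing libraries of the study. All 17605 genes of the expression table were kept as members, and families were formed from the wording of the description that the table gives for each gene. The study compared egg-laying and egg extract treatment to find genes that mark the plant's reaction to eggs. The 3 egg extract libraries enter here only in the common estimate of the spread.

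All plants were Columbia (Col-0) wild type, about 5 weeks old, grown with 10 h of light and 14 h of night, and no line carried a transgene. For each oviposition sample, 15 plants stood for 24 h in a tent with about 30 butterflies, after which 4 plants with 1 egg batch on each of 2 leaves were kept for 4 days without butterflies. Eggs were removed shortly before they would hatch, and a sample pools leaves of several plants. Control plants were untreated, and whether they stood in a tent is not given in the sources used here, so the eggs cannot be told apart from other effects of the butterflies' visit. The replicates came from separate experiments according to the study's methods, whereas the sample labels give only a number. P-values rest on the spread among replicates within every group, egg extract included.

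Insect eggs sit on the leaf surface for several days before the larvae emerge, and *Arabidopsis* is known to answer them with salicylic acid signalling, reactive oxygen and local cell death below the egg batch. Pattern-triggered immunity (PTI), the general defence started by surface receptors that recognize foreign molecules, shares many target genes with this answer. Salicylic acid acts through the receptor NPR1 on genes such as those for pathogenesis-related (PR) proteins, while jasmonate controls most responses to chewing larvae.

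The libraries held leaf RNA. The 5 mesophyll markers had a median level of 12.03 log2 CPM in controls and 12.2 after oviposition, and markers of root (1 gene), seed (3), flower (2), shoot meristem (1) and trichomes (1) were not in the table. The summed mesophyll markers ranged from 12300 to 97940 CPM, the normalized reads relative to library size, in controls and from 12790 to 64860 CPM after oviposition, guard cell markers from 53.53 to 81.62 and from 50.54 to 58.01 CPM, epidermal markers from 146.5 to 225.4 and from 99.93 to 222.9 CPM, and the companion cell marker from 171.7 to 284.9 and from 199.4 to 252.0 CPM. None of these marker genes passed the test, and their part in the results below was not tested. In such bulk samples, a change in the number of cells of a type and a change of RNA per cell cannot be told apart.

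Between 37348236 and 47057692 reads per library could be recovered from the deposited values. A pair of libraries stood apart. The 20 strongest genes took 23.31% of the reads in control replicate 3 and 17.36% in oviposition replicate 1, against 8.37 to 11.88% in the other 4 libraries of these groups. The same pair had the highest mesophyll marker sums of their groups, carried largely by the chlorophyll-binding protein gene *CAB1*, at 16.09 and 15.44 log2 CPM. *RBCS1A* and *RCA* were also highest in this pair. *GAPA* was not, at 10.18 and 9.87 against up to 10.84 and 10.45 in the same groups, and *CA1* was not in oviposition replicate 1. A comparison without this pair of libraries was added after the data were seen. It is given beside a family's count where it moved this by over 1.5 times, while named genes that lost their call in it are listed at the end. Levels are log2 CPM, so a level of 0 is 1 CPM, and fold changes are differences of mean levels, oviposition minus control, ± the standard error (SE) from limma with n = 3 per group. Genes are called raised or lowered at an adjusted p under 0.05 over all genes.

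Oviposition raised 263 of 17605 genes, 1.49% of the table, and lowered 1 gene, 0.00568%. All 263 raised genes had their 3 oviposition libraries above the 3 controls and rose at least 2-fold, and 130 of them rose at least 16-fold. The median of the raised genes was 3.95 on the log2 scale, while that of all genes was -0.02. Without regard to p, 1284 genes were at least 2-fold higher and 327 at least 2-fold lower. All 3 oviposition libraries lay above all controls in 1049 genes (5.96%) and below them in 577 (3.28%), and the median change was 2.06 in the first group and -0.54 in the second. At an unadjusted p under 0.05 there were 1057 higher genes (6.0%) and 296 lower genes (1.68%), and with an adjusted p under 0.1 there were 398 and 6. An exact permutation test of a single gene with 3 libraries against 3 cannot give a p under 0.1, so calls come from the limma model alone. Nothing is read from the excess of higher genes, because the table's filter can keep genes that are low in controls for their level after a treatment. Of 776 genes at least 2-fold higher without overlap, 448 were under 1 CPM in controls. Among the 16488 genes at 1 CPM or more in both groups, a split chosen after the values were seen, 328 were at least 2-fold higher without overlap and 74 at least 2-fold lower, and 81 were raised.

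**Figure D1:**
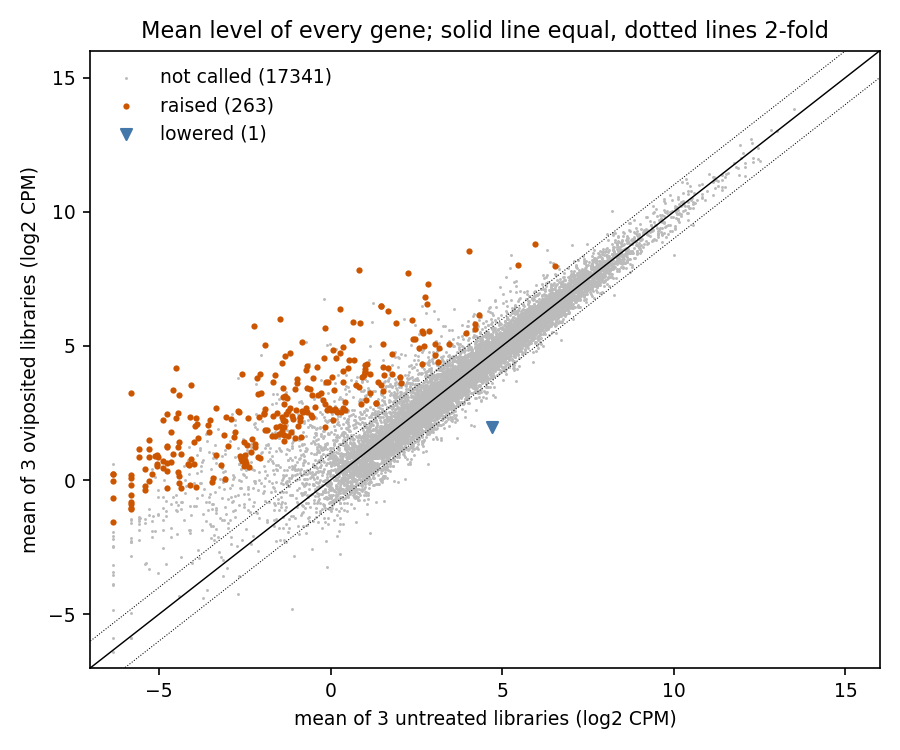
Mean level of each of the 17605 genes in the 3 untreated libraries (x axis, log2 CPM) and in the 3 oviposited libraries (y axis, log2 CPM), with the 263 raised genes in orange, the lowered gene as a blue triangle and all others in grey. The raised genes lie at the left, with a median level of -1.36 in controls against 4.18 for all genes.

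The raised genes were mostly silent or nearly silent in untreated leaves. Their median level was -1.36 in controls and 2.53 after oviposition, and 182 of the 263 lay below 1 CPM in controls, where the table holds 911 genes. Of these 911 genes, 645 (70.8%) reached 1 CPM after at least 1 treatment, so many may be in the table only because they were high in treated leaves, and their share of raised genes is therefore given without weight. Among the 16694 genes at 1 CPM or more in controls, 81 were raised. The counts fell with the level in controls, from 53 of 2256 genes at levels of 0 to 2 (2.35%) to 21 of 5014 at 2 to 4 (0.419%), 6 of 6528 at 4 to 6 (0.0919%), 1 of 2416 at 6 to 8 (0.0414%) and 0 of 480 above. Of the raised genes, 62 had 0 reads in at least 1 control library and 5 had 0 reads in all. Fitted fold changes of these genes depend on the 0.5 reads added before the logarithm.

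The size of the rise differed among the oviposition libraries. The highest of the 3 values was in oviposition replicate 2 in 151 of the 263 raised genes (57.4%, against 27.8% of all genes), in replicate 1 in 77 and in replicate 3 in 35. The median level of the raised genes was 2.35, 3.06 and 2.50 in oviposition replicates 1 to 3 and -1.07, -1.09 and -1.68 in the controls. The spread among the oviposition libraries was over 3 log2 units in 15 raised genes and under 1 in 111. Removing libraries changed the number of called genes. Without oviposition replicate 2 there were 114 raised genes, without oviposition replicate 3 there were 137, without egg extract replicate 1 there were 171 and without egg extract replicate 3 there were 166, and 99 genes (37.6%) kept their call whichever of the 9 libraries was left out. Without control replicate 3 and oviposition replicate 1 together, 194 genes were raised, of which 149 were among the 263. The other 114 were not called in this comparison. With egg extract libraries taken out of the model, so that the spread came from controls and oviposited plants alone, 54 genes were raised, all among the 263. Weights fitted per library, higher for a smaller spread, were 3.508, 1.141 and 2.518 in egg extract replicates 1 to 3. In control and oviposition libraries they ran from 0.3216 to 1.501. All 263 had a higher mean after oviposition in every setting that kept them. No weight is placed on this. Their groups did not overlap, so any fit with libraries left out had to give it.

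**Figure D2:**
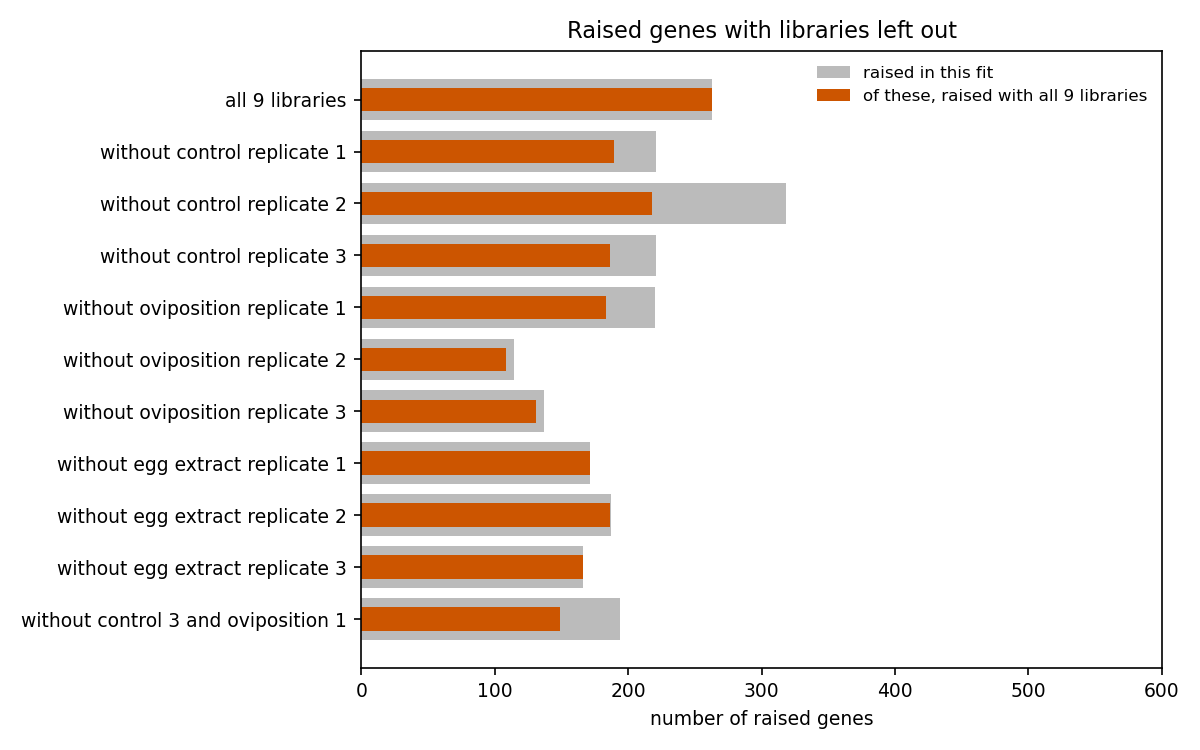
Number of genes raised by oviposition (x axis) with all 9 libraries, without each library and without control replicate 3 and oviposition replicate 1 together (y axis), in grey, and the number of these that were raised with all 9 libraries, in orange. The lowest count is 114, without oviposition replicate 2, and the highest is 318, without control replicate 2.

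The gene with the smallest adjusted p was *ATGSTU10* (AT1G74590), a tau class glutathione S-transferase, an enzyme class that couples glutathione to toxic or oxidized compounds. Its level was -1.97, -1.72 and -2.77 in controls and 3.85, 3.83 and 3.72 after oviposition. The oviposition libraries differed little and none approached a control. It rose by 5.95 ± 0.32 (adjusted p = 0.000384, limma) and kept its call without any 1 library and without both libraries that stood apart. *WRKY75* (AT5G13080), a transcription factor known from leaf senescence and phosphate starvation, had 3 reads in all controls together and 755 after oviposition, a ratio of 246 with a 95% counting interval of 83.89 to 1196. Such intervals cover counting error only. *WRKY75* had levels of -4.91, -4.97 and -4.38 in controls and of 1.90, 3.15 and 2.36 after oviposition, and its adjusted p was 0.000412.

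The gene with the largest rise was AT2G44240, which has no known role, at -6.49, -4.97 and -5.99 in controls and at 3.49, 3.90 and 2.38 after oviposition. It had 1 read in all controls and 1302 after oviposition, a ratio of 1273 with a counting interval of 228.1 to 5.033e+04, and it kept its call without any 1 library. *ALPHA-DOX1* (AT3G01420), an alpha-dioxygenase that oxidizes fatty acids, was uneven, with 0.88, 7.24 and 4.39 after oviposition, and the change of 8.68 ± 1.43 was not called without control replicate 1 or oviposition replicate 3. The beta-glucosidase *DIN2* (AT3G60140) rose by 7.95 ± 1.24 and was similarly uneven, at -4.91, -2.87 and -5.99 in controls and at 0.71, 5.86 and 3.51 after oviposition, with the call lost without control replicate 1 or 3 or oviposition replicate 3 (adjusted p up to 0.0766). In both genes oviposition replicate 2 was the highest library. *ATOSM34* (AT4G11650), an osmotin of the thaumatin-like proteins, rose by 7.60 ± 1.22 and lost its call without control replicate 3 or oviposition replicate 2 or 3, and the nitrilase *NIT2* (AT3G44300) rose by 7.49 ± 1.17 and lost it without oviposition replicate 2 or 3 (adjusted p up to 0.0902 and 0.0836). AT1G13520, of unknown function, rose by 7.12 ± 1.03 and lost its call without oviposition replicate 2 (adjusted p = 0.0598). AT1G28400, also of unknown function, was among the raised genes with the highest levels, at 6.08, 5.12 and 5.17 in controls and at 7.37, 8.53 and 8.12 after oviposition, a change of 2.55 ± 0.36 that kept its call without any 1 library.

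The promoters of *ATGSTU10*, *WRKY75* and a cluster of neighbours described further on are printed to show a sequence that many raised genes shared. WRKY factors bind the W-box, whose core is TTGAC. Each sequence has the 250 bases before the gene start given in the table, read from the TAIR10.1 genome of RefSeq on the coding strand, with TTGAC and its reverse complement GTCAA in capitals. The positions are chr1:28024727-28024976 for *ATGSTU10*, chr5:4151151-4151400 for *WRKY75*, chr1:9128529-9128778 for AT1G26380, chr1:9131780-9132029 for AT1G26390, chr1:9140440-9140689 for AT1G26410 and chr1:9143305-9143554 for AT1G26420, all on the minus strand.
ATGSTU10: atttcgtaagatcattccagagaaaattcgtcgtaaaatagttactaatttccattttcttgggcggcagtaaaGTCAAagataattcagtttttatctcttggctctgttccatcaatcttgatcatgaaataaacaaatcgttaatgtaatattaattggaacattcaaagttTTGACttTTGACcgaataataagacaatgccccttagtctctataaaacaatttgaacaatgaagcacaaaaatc
WRKY75: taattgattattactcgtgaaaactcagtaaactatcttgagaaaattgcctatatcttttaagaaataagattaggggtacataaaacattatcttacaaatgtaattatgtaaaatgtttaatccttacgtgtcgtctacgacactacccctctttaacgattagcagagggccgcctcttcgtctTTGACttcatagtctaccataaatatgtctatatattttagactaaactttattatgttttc
AT1G26380: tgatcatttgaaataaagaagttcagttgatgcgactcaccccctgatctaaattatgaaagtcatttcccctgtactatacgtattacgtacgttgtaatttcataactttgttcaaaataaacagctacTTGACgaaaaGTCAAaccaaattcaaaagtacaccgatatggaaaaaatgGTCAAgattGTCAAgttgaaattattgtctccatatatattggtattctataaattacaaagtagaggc
AT1G26390: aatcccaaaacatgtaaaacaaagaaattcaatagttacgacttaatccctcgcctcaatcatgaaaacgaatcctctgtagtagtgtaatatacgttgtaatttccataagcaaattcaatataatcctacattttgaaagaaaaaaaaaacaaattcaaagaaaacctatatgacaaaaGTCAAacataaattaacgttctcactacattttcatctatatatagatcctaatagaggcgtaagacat
AT1G26410: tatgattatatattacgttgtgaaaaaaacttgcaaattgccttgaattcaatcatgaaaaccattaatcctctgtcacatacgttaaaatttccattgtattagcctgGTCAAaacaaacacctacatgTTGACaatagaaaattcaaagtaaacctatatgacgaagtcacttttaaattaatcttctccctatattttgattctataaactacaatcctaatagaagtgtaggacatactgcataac
AT1G26420: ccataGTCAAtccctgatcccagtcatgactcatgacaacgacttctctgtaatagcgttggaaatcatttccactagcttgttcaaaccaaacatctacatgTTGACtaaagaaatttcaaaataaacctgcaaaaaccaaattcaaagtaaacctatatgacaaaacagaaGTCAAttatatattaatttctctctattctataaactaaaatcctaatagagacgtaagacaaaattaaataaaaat

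The core was present 3 times before *ATGSTU10*, 1 time before *WRKY75*, and 4, 1, 2 and 3 times before AT1G26380, AT1G26390, AT1G26410 and AT1G26420. Searched on both strands, TTGAC was found in 179 of the 263 raised genes (68.1%) and in 7913 of all 17523 genes with such a window (45.2%), and at least 2 copies were found in 26.6% and 14.2%. Among the 99 genes that kept their call without each library the share was 73.7%. Among all genes with a window, the raised genes and the 99, the other motifs had these shares. The as-1 core TGACG, bound by TGA factors that work with NPR1, was in 22.2%, 26.2% and 28.3%, the G-box CACGTG in 9.32%, 7.6% and 10.1%, and the GCC-box GCCGCC, bound by ERF factors, in 2.45%, 3.04% and 5.05%. TTGACG, where a W-box core and an as-1 core overlap, was in 7.89%, 9.89% and 15.2%. These shares are descriptions of letters in a window, with no test, and the raised genes were chosen by their expression.

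**Figure D3:**
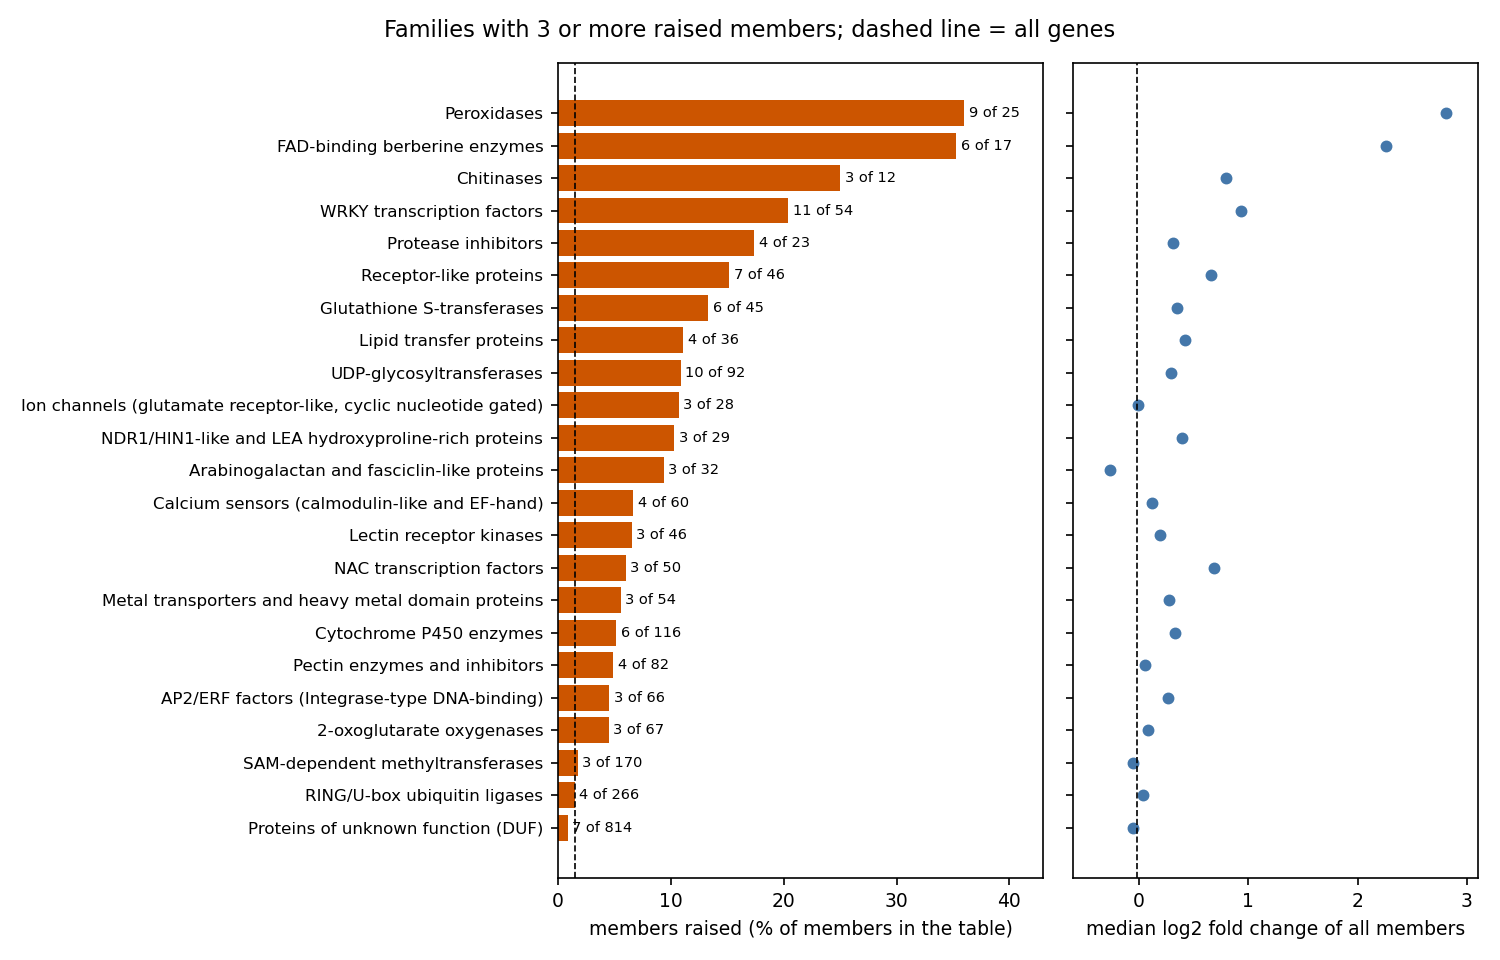
Share of measured members raised by oviposition in the 23 families with 3 or more raised members (left, % of members, labelled with raised and measured members) and the median log2 fold change of all their members (right), with the value of all genes as a dashed line. Peroxidases and berberine enzymes stand at the top with 36.0% and 35.3% raised, against 1.49% of all genes.

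Of 75 families with 5289 genes, 23 had 3 or more raised members, and together these held 112 of the 263 raised genes. The families are described below by role, each with raised members and, for most, the median of all measured members. Where higher or lower means are counted, the background is all 17605 genes, of which 8405 were higher and 9200 lower. Where leaving out libraries moved the count of raised members by over 1.5 times, the libraries on which the count rests are given. The range in brackets after a median runs over the alternative scalings and the fits with libraries left out. Medians left out below were 0.20 (0.001 to 0.30) for lectin receptor kinases and 0.39 (0.21 to 0.63) for the NDR1/HIN1-like group. They were 0.09 (0.0007 to 0.14) for 2-oxoglutarate oxygenases, -0.06 (-0.12 to -0.03) for methyltransferases and 0.05 (-0.06 to 0.19) for pectin enzymes. Metal transport genes had 0.27 (0.21 to 0.42), RING ligases 0.04 (0.001 to 0.08) and ion channels -0.01 (-0.16 to 0.21). Proteins described with a domain of unknown function had -0.05 (-0.09 to -0.03). As many members are low in controls, the table's filter bears on these shares too.

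Among transcription factors, WRKY genes formed the main raised group. Of 54 WRKY genes, 11 (20.4%) were raised and 44 had a higher mean after oviposition, with a median of 0.94 (0.71 to 1.23). *WRKY45* (AT3G01970), which like *WRKY75* is known to promote leaf senescence, had levels of -0.88, 0.18 and 0.25 in controls and of 3.69, 3.83 and 3.44 after oviposition. The groups were far apart, with a rise of 3.80 ± 0.33 (adjusted p = 0.002). *WRKY45* and *WRKY75* were the raised WRKY genes that kept their call without any 1 library. *WRKY71* and *WRKY61* rose by 6.44 ± 0.89 and 6.01 ± 0.89 from levels under -2.8 in every control, and lost their call without oviposition replicate 2 or 3, with adjusted p up to 0.0556 and 0.068. *WRKY60*, which acts with *WRKY18* and *WRKY40* in salicylic acid responses, was the strongest raised member, with 2.61, 3.25 and 2.11 in controls and 5.92, 5.78 and 4.96 after oviposition. It lost its call without control replicate 1 or 3 or oviposition replicate 1 or 2 (adjusted p up to 0.0828). The other raised members were *WRKY31*, *WRKY72*, *WRKY41*, *WRKY62*, *WRKY48* and *WRKY47*, with rises of 2.09 to 5.41, and each lost its call without at least 4 libraries, oviposition replicates 2 and 3 among them. *WRKY63*, described in the table by another name, had 0 reads in all controls and 49 after oviposition, at least 15.97-fold higher against a floor of 3 counts over the group. Raised WRKY genes numbered 2 without oviposition replicate 2, 3 without oviposition replicate 3, 5 without egg extract replicate 1 or 3, 6 without control replicate 3 or egg extract replicate 2, 7 without oviposition replicate 1 and 4 without both libraries that stood apart.

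NAC factors, many of which act in senescence, were higher in 45 of 50 genes, with a median of 0.69 (0.42 to 1.03) and 3 raised (6.0%). *ANAC047* (AT3G04070) had levels of 1.41, 0.89 and 0.68 in controls and of 3.58, 4.66 and 4.23 after oviposition, a rise of 3.16 ± 0.32. *ANAC016* (AT1G34180), a promoter of leaf yellowing, rose by 2.48 ± 0.29 from 0.30, 0.26 and -0.18 to 2.79, 2.20 and 2.83. Both kept their call without any 1 library. *ANAC087* rose by 3.57 ± 0.59 and lost its call without control replicate 1 or 3, oviposition replicate 2 or 3, or egg extract replicate 1 (adjusted p up to 0.0846). Without control replicate 2 the family had 5 raised members. Of 66 AP2/ERF factors 3 were raised (4.55%), with a median of 0.27 (0.10 to 0.60). They were *RAP2.6L* (4.72 ± 0.74), *DREB19* (4.71 ± 0.88) and *ERF112* (3.90 ± 0.61), and none was raised without oviposition replicate 2 or 3 and 1 without both libraries that stood apart. Of 72 MYB genes, *ATMYB122*, an activator of indole glucosinolate synthesis, and *ATMYB2* were raised. *ATMYB2* had 0.30, 0.89 and 1.77 in controls and 4.10, 4.52 and 3.50 after oviposition. No member was called among 73 bHLH and 31 bZIP factors, whose medians of -0.06 and 0.03 changed sign with the library left out.

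Receptors at the cell surface differed by class. Receptor-like proteins, which carry leucine-rich repeats outside the cell and no kinase, had 7 of 46 members raised (15.2%). Their median was 0.66 (0.12 to 0.84, the lowest without control replicate 3, and 0.33 without both libraries that stood apart). The groups did not overlap upwards in 17 members (37.0%, against 5.96% of all genes). *AtRLP41* (AT3G25010) had levels of 2.73, 2.64 and 2.00 in controls and of 5.56, 4.71 and 5.45 after oviposition. *AtRLP28* (AT2G33080) had -1.64, -1.45 and -2.48 in controls and 1.02, 2.05 and 2.55 after oviposition. Both kept their call without any 1 library, with rises of 2.78 ± 0.29 and 3.73 ± 0.49. The other raised members were *AtRLP20*, *AtRLP22*, *AtRLP52*, *AtRLP21* and *AtRLP39*, with rises of 2.58 to 6.04. Raised members numbered 2 without oviposition replicate 3, 4 without oviposition replicate 1 or 2 or egg extract replicate 1 or 3, and 5 without both libraries that stood apart. Neighbouring receptor-like protein genes are close in sequence, and how shared reads were assigned is not given in the sources used here, so values of single copies are uncertain.

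The 122 leucine-rich repeat receptor kinases had 2 raised members (1.64%) and a median of -0.28 (-0.44 to -0.19), with 31 higher and 91 lower, and the median was below 0 under every scaling and with each library left out. The raised pair, AT1G51860 and AT1G51890, are near neighbours with rises of 5.63 ± 0.90 and 4.81 ± 0.87. Both lost their call without any 1 of the oviposition libraries, with adjusted p up to 0.0943 and 0.136, and AT1G51890 also without any egg extract library, while without both libraries that stood apart their adjusted p was 0.00905 and 0.00423. Intracellular receptors of the NBS-LRR class had 1 raised gene of 110, AT4G11170, which rose by 5.33 ± 0.63 from -3.69, -4.97 and -5.99 to 0.21, 0.55 and 0.58. Their median of -0.17 was 0.04 without control replicate 1. *FRK1* (AT2G19190), a receptor kinase used as a marker of PTI, had 0.11, -0.35 and -1.84 in controls and 3.34, 3.14 and 3.78 after oviposition, a rise of 4.11 ± 0.50.

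Receptor kinases with cysteine-rich repeats had 2 of 32 members raised (6.25%), *CRK7* and *CRK38*, and a median of 0.34 (0.19 to 0.49). The groups did not overlap upwards in 12 members (37.5%, against 5.96% of all genes) and downwards in 2 (6.25%, against 3.28%). *CRK7* was at 1.11, 1.69 and 0.21 in controls and at 4.33, 4.38 and 4.17 after oviposition. Of 11 wall-associated kinases, which monitor pectin in the cell wall, *WAK3* and *WAKL10* were raised. In this family 5 members were higher and 6 lower, with a median of -0.01 that changed sign with the library left out. *WAK3* had 0.47, 1.47 and -0.42 in controls and 4.11, 4.35 and 4.09 after oviposition, and *WAKL10* had 0.14, -0.24 and -0.23 in controls and 2.54, 2.72 and 2.55 after oviposition. *CRK7*, *WAK3* and *WAKL10* kept their calls without any 1 library, and *CRK38* lost it without oviposition replicate 2 or 3 (adjusted p up to 0.0533). Among 46 lectin receptor kinases, a class with receptors for extracellular nucleotides and lipids, *LECRK11*, *LECRKA4.1* and *LECRKA4.2* were raised (6.52%). *LECRKA4.2* (AT5G01550) had -1.45, -1.82 and -0.96 in controls and 2.10, 2.51 and 2.50 after oviposition and was the member that kept its call without any 1 library. The family had 6 raised members without control replicate 2 and 1 without any 1 of the oviposition libraries.

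Calcium signalling held a few raised genes. Of 60 calmodulin-like and EF-hand proteins 4 were raised (6.67%), and 43 were higher. *CML41* (AT3G50770), which acts at plasmodesmata in defence, was at 0.45, -0.60 and -0.35 in controls and at 6.47, 4.41 and 6.10 after oviposition. It had the largest rise of the family, 5.83 ± 0.54. *CML44* (AT1G21550) rose by 2.69 ± 0.26 from 1.54, 1.62 and 1.41 to 4.66, 3.82 and 4.16. *CML39* (AT5G42380, described in the table as calmodulin like 37) rose by 3.32 ± 0.48 and lost its call without oviposition replicate 2 (adjusted p = 0.0569). *CML47* rose by 2.85 ± 0.54 and kept its call in 1 of the 9 fits with a library left out, that without control replicate 3. The family had 2 raised members without oviposition replicate 2 and without both libraries that stood apart. Its median of 0.12 was -0.07 without oviposition replicate 1. None of 44 calcium-dependent kinases and calcineurin B-like partners and none of 38 members of the MAP kinase cascade were called. Glutamate receptor-like channels, which carry wound-induced calcium signals, gave the 3 raised genes among 28 ion channels (10.7%). *GLR2.8* (AT2G29110) rose from -0.71, -0.80 and -0.96 to 2.40, 1.96 and 3.39 and kept its call without any 1 library. Its neighbour *GLR2.9* rose by 3.69 ± 0.67 and *GLR2.5* by 4.42 ± 0.66. Without oviposition replicate 2 or 3 the class had 1 raised member.

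**Figure D4:**
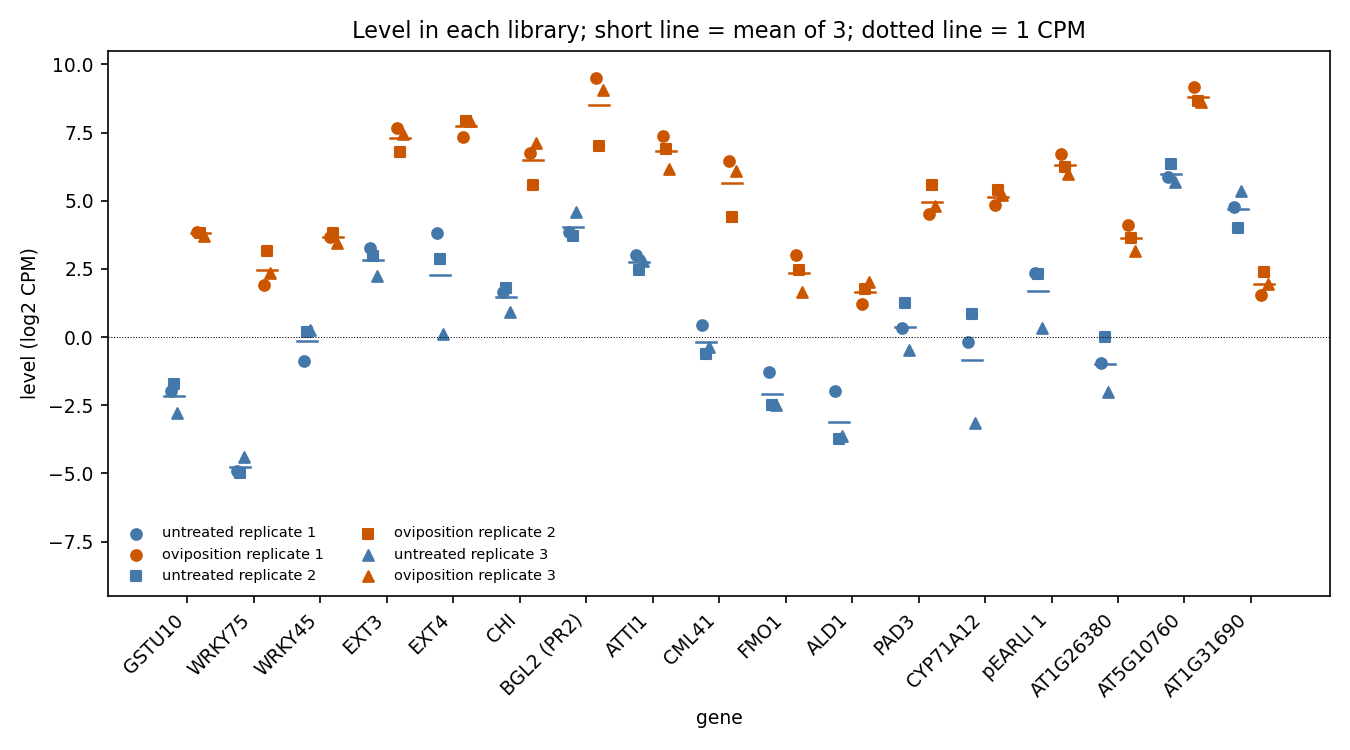
Level in each library (y axis, log2 CPM) of selected genes (x axis), with the 3 untreated libraries in blue, the 3 oviposited libraries in orange, a marker shape for each replicate and a short line at the mean of each group. In *GSTU10* the oviposited libraries lie between 3.72 and 3.85 and the controls between -2.77 and -1.72. AT1G31690 is the gene in which the order is turned.

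Single members of several families of secreted antimicrobial proteins were raised. *PR1* is a marker of the study and is not described further here. *BGL2* (AT3G57260), the beta-1,3-glucanase known as PR2, had levels of 3.85, 3.70 and 4.57 in controls and of 9.49, 7.02 and 9.04 after oviposition, a rise of 4.48 ± 0.60 (adjusted p = 0.00833). Oviposition replicate 2 was the lowest of the treated libraries and still above all controls. *BGL2* was the 1 raised member among 21 genes described as beta-1,3-glucanases or O-glycosyl hydrolases of family 17, whose median was -0.22 (-0.27 to -0.06). AT4G16260 is described only as a glycosyl hydrolase and was not counted among these. It rose by 5.93 ± 0.70 from -0.82, -0.24 and -2.48 to 4.32, 5.03 and 4.91. Of 12 chitinases, which cut the chitin of fungi and insects, 3 were raised (25%), with a median of 0.80 (0.49 to 1.23). *CHI* (AT2G43570) had 1.67, 1.79 and 0.93 in controls and 6.76, 5.58 and 7.12 after oviposition and rose by 5.02 ± 0.41. *CHI* kept its call without any 1 library. AT4G19810 rose by 3.19 ± 0.58 and *ATEP3* by 2.33 ± 0.41, and among the 9 fits with a library left out each was called in 1, that without oviposition replicate 1 for AT4G19810 and that without control replicate 3 for *ATEP3*. *CHI* was the 1 raised chitinase without control replicate 1 or 2, oviposition replicate 2 or 3, or any egg extract library.

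Protease inhibitors, which can block digestive enzymes of larvae, had 4 of 23 members raised (17.4%) and a median of 0.31 (0.13 to 0.83). Besides the study's marker *TI* (AT1G73260), these were AT5G43580, AT2G38870 and *ATTI1* (AT2G43510), a different trypsin inhibitor. *ATTI1* had levels of 3.01, 2.44 and 2.79 in controls and of 7.37, 6.90 and 6.18 after oviposition, a rise of 4.07 ± 0.32. AT2G38870 rose by 3.57 ± 0.41 from 2.53, 1.44 and 3.16 to 6.06, 6.27 and 5.51. Both kept their call without any 1 library, whereas AT5G43580 (6.95 ± 1.12) lost it without control replicate 3 or oviposition replicate 2 or 3 (adjusted p up to 0.0752). Proteases of the aspartyl type, 46 genes, had 2 raised members. AT5G10760 was already strong in controls at 5.87, 6.33 and 5.71 and rose to 9.18, 8.65 and 8.62, a change of 2.85 ± 0.27 (adjusted p = 0.00272).

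Lipid transfer proteins, small secreted carriers of lipids, had 4 of 36 members raised (11.1%) and a median of 0.42 (0.19 to 0.85). Of these, 3 are neighbours on chromosome 4. *pEARLI 1* (AT4G12480) was at 2.37, 2.33 and 0.33 in controls and at 6.72, 6.25 and 5.97 after oviposition. AT4G12490 was at 1.51, 1.64 and -0.55 in controls and at 6.24, 5.39 and 5.91 after oviposition, and AT4G12500 at -3.69, -0.43 and -3.63 and at 4.13, 4.16 and 3.56. All kept their call without any 1 library, with rises of 4.64 ± 0.51, 4.98 ± 0.56 and 6.53 ± 0.83, while without both libraries that stood apart the adjusted p of AT4G12500 was 0.0715. The copies are near-identical in part and how reads were split among them is not known. AT5G64080 rose by 2.94 ± 0.47 and lost its call without control replicate 3 or oviposition replicate 3 (adjusted p up to 0.0723). Without control replicate 1 the family had 7 raised members. Among 29 proteins of the NDR1/HIN1-like and LEA hydroxyproline-rich group 3 were raised (10.3%), led by *YLS9* (AT2G35980, also *NHL10*), a marker of PTI and senescence, from -2.79, -3.11 and -5.99 to 2.03, 2.36 and 1.68. *YLS9* kept its call without any 1 library and was the raised member without oviposition replicate 2, and 1 member was raised without both libraries that stood apart. Of 16 defensins and other cysteine-rich peptides 2 were raised. AT4G22230 had 1 read in controls and 184 after oviposition, and *LCR78* rose by 5.31 ± 1.01, but each kept its call in only 1 of the 9 fits with a library left out, that without control replicate 2 for AT4G22230 and that without control replicate 1 for *LCR78*.

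Enzymes that make or remove reactive oxygen and toxic compounds held many raised genes. Of 25 peroxidases 9 were raised (36.0%), and the median was 2.81 (0.95 to 3.12). The groups did not overlap upwards in 16 (64.0%, against 5.96% of all genes). One of the 9 is *ALPHA-DOX1*, which carries the same description in the table. Class III peroxidases are secreted to the cell wall, where they produce or consume hydrogen peroxide and join lignin and extensin. *PER52* (AT5G05340) had 0.19, 0.21 and -2.48 in controls and 3.80, 4.74 and 4.26 after oviposition, a rise of 4.96 ± 0.66. *ATPA2* (AT5G06720) rose by 4.08 ± 0.56 from -2.10, -1.53 and -1.06 to 2.31, 3.46 and 1.77. Both kept their call without any 1 library, while without both libraries that stood apart the adjusted p of *ATPA2* was 0.0533. *PER71* (AT5G64120) had the highest level after oviposition among raised class III members, 5.74, 5.88 and 4.78 against 2.48, 2.84 and 2.73, and lost its call without control replicate 1 or 3 or oviposition replicate 1 or 2 (adjusted p up to 0.0915). *PRX33* (AT3G49110), a source of the apoplastic oxidative burst, rose by 4.05 ± 0.62 from a very low level and lost its call without oviposition replicate 1 or 2. Raised peroxidases numbered 5 without control replicate 1 or oviposition replicate 1, 3 without oviposition replicate 2 and 4 without both libraries that stood apart.

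Glutathione S-transferases had 6 of 45 members raised (13.3%) and a median of 0.35 (0.14 to 0.53). Next to *ATGSTU10*, *ATGSTU8* (AT3G09270) rose by 4.59 ± 0.43 from -2.59, -1.15 and -2.03 to 2.54, 3.09 and 2.37. AT5G44990 had 3 reads in controls and 186 after oviposition, a ratio of 60.6 with a 95% counting interval of 20.43 to 296.7. These 3 genes kept their call without any 1 library. *ATGSTU9*, *ATGSTU11* and *ATGSTU3* rose by 4.23 ± 0.64, 3.35 ± 0.56 and 5.39 ± 0.99, and *ATGSTU3* was uneven, with -0.34, 3.62 and 0.96 after oviposition. Without oviposition replicate 2 the family had 3 raised members and without both libraries that stood apart 4. *GSTL1* (AT5G02780), a lambda class member described in the table as a glutathione transferase, rose by 5.85 ± 0.77. AT5G38900, of the thioredoxin superfamily, had the third smallest adjusted p of all genes, 0.00109, with 0.74, 0.23 and -0.18 in controls and 5.10, 4.91 and 4.23 after oviposition. Thioredoxins and glutaredoxins were little changed as a group. Of the 100 genes 2 were raised, AT5G38900 included, and the median of -0.09 changed sign with the library left out.

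Berberine-type oxidases, FAD-dependent enzymes of the apoplast and of indole metabolism, had 6 of 17 members raised (35.3%) and a median of 2.26 (1.48 to 2.66). Of these, AT1G26380, AT1G26390, AT1G26410 and AT1G26420 follow each other in the table, on chromosome 1 from 9126737 to 9143304 (TAIR10). They formed the longest run of raised genes, and genes left out by the table's filter may lie between them. AT1G26380, known to oxidize an indole cyanohydrin on the way to 4-hydroxyindole-3-carbonyl nitrile, was at -0.94, -0.01 and -2.03 in controls and at 4.10, 3.62 and 3.16 after oviposition. AT1G26410 rose from -6.49, -3.40 and -5.99 to 1.95, 0.91 and 1.60, and AT1G26420 from -0.47, -1.02 and -2.23 to 2.71, 2.56 and 2.45. The groups were separate in all of these, and the rises of 4.62 ± 0.52, 6.78 ± 0.79 and 3.82 ± 0.45 kept their calls without any 1 library. AT1G26390 had the largest rise of the run, 6.94 ± 1.18, from -2.59, 1.21 and -4.38 to 4.41, 6.04 and 4.60, but lost its call without control replicate 1, any oviposition library or egg extract replicate 1 or 3 (adjusted p up to 0.108). AT4G20860, known to oxidize cellulose fragments, rose by 1.77 ± 0.28 from 3.54, 3.14 and 2.81 to 5.15, 5.05 and 4.60 and lost its call without oviposition replicate 1 or 2 (adjusted p up to 0.0851). AT5G44380 rose by 5.32 ± 0.98 and lost its call without 7 libraries. Without oviposition replicate 1 or 2, 3 members were raised. The promoters of the run are among those printed above.

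Cytochrome P450 enzymes had 6 of 116 members raised (5.17%), 78 higher and a median of 0.33 (0.22 to 0.38). *PAD3* (AT3G26830), the last enzyme of camalexin synthesis, was at 0.33, 1.25 and -0.48 in controls and at 4.50, 5.56 and 4.82 after oviposition, a rise of 4.60 ± 0.44 (adjusted p = 0.00272). *CYP71A12* and *CYP71A13*, near-identical neighbours that turn indole-3-acetaldoxime towards camalexin and related nitriles, rose by 5.99 ± 0.83 and 4.43 ± 0.80. *CYP71A12* was at -0.19, 0.83 and -3.14 in controls and at 4.85, 5.40 and 5.20 after oviposition and lost its call only without oviposition replicate 2 (adjusted p = 0.0506). *CYP71A13* lost it without 7 libraries, and reads may be split between the copies. *CYP82C2* (AT4G31970), the hydroxylase of the 4-hydroxyindole-3-carbonyl nitrile route, had 2 reads in controls and 462 after oviposition, a ratio of 225.9 with a counting interval of 62.18 to 1871, and its levels after oviposition were uneven at 0.07, 3.06 and 0.39. *PAD3* and *CYP82C2* kept their call without any 1 library. *CYP81G1* and *CYP76C5* rose by 5.55 ± 0.82 and 3.12 ± 0.50. The family had 11 raised members without control replicate 2 and 3 without oviposition replicate 2 or 3.

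Glycosyltransferases that attach sugars to hormones and defence compounds had 10 of 92 members raised (10.9%) and a median of 0.30 (0.03 to 0.46, the lowest without control replicate 1). *UGT73C3* (AT2G36780) rose by 5.76 ± 0.85 and *UGT73D1* (AT3G53150) by 5.39 ± 0.72, and these kept their call without any 1 library. *UGT87A2* (AT2G30140) was the strongest, with 3.79, 4.60 and 4.24 in controls and 5.71, 6.003 and 5.79 after oviposition, a rise of 1.62 ± 0.24 that was not called without oviposition replicate 2 (adjusted p = 0.0665). The others were *UGT76E12*, *UGT76E3*, *UGT76E4*, *UGT71B5*, *UGT74E2*, *UGT73B3* and *UGT85A1*, with rises of 2.81 to 5.67, and each lost its call without at least 5 libraries. Raised members numbered 2 without oviposition replicate 2, 3 without oviposition replicate 3 or egg extract replicate 1 or 3, 5 without control replicate 1 or egg extract replicate 2, 6 without control replicate 3 and 4 without both libraries that stood apart. Of 67 2-oxoglutarate oxygenases 3 were raised (4.48%), with 1 left without oviposition replicate 2. AT4G10500, known as *DLO1* or S3H and an enzyme that inactivates salicylic acid by hydroxylation, was at 0.01, 1.41 and -0.96 in controls and at 4.32, 4.79 and 4.56 after oviposition, a rise of 4.40 ± 0.57 that kept its call without any 1 library. AT5G59530 and AT2G30840 rose by 6.02 ± 0.84 and 3.65 ± 0.51. Methyltransferases were raised near the share of all genes, 3 of 170 (1.76%). *CCOAMT* (AT1G67980), of the caffeoyl-CoA type, rose by 5.995 ± 0.65 from -1.36, -3.11 and -1.68 to 5.04, 2.77 and 4.03, and *PXMT1* by 5.20 ± 0.51.

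Cell wall genes rose in small groups. Extensins are structural glycoproteins that peroxidases link into the wall. *ATEXT3* (AT1G21310) had 3.28, 2.97 and 2.24 in controls and 7.66, 6.78 and 7.45 after oviposition, a rise of 4.46 ± 0.34 (adjusted p = 0.0012). *ATEXT4* (AT1G76930) rose by 5.47 ± 0.78 from 3.81, 2.85 and 0.12 to 7.35, 7.92 and 7.92 and lost its call without oviposition replicate 2 or 3 (adjusted p up to 0.055). Of 82 pectin enzymes and inhibitors 4 were raised (4.88%). *PME17* (AT2G45220), a pectin methylesterase induced by pathogens, was at -0.77, -0.11 and -3.14 in controls and at 3.83, 4.83 and 5.21 after oviposition, and AT2G01610, an inhibitor-type protein, rose from 0.58, 0.23 and 0.80 to 3.89, 5.31 and 4.26. *PME17* and AT2G01610 kept their call without any 1 library. *ATPME2* and the pectin lyase AT3G27400 rose by 4.35 ± 0.65 and 3.94 ± 0.63 and lost their calls without oviposition replicate 2 or 3, which left 2 raised members. Arabinogalactan and fasciclin-like proteins had 3 raised members of 32 (9.38%), *AGP5*, *AGP24* and *AGP1*, beside a family median of -0.27 that was 0.14 without control replicate 3. *AGP5* (AT1G35230) rose from -1.14, -0.52 and 0.51 to 3.30, 3.37 and 2.79, and 1 member was raised without oviposition replicate 2 or 3 or egg extract replicate 3. No expansin (16 genes) or cellulose synthase-like gene (23) was called.

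Transporters were raised singly. *ATPTR3* (AT5G46050), a peptide transporter known from wounding and defence, was at 1.07, 1.30 and 0.82 in controls and at 4.64, 4.00 and 4.36 after oviposition, a rise of 3.27 ± 0.25 (adjusted p = 0.0012). *ATCHX17* (AT4G23700), a cation/proton exchanger, was at -3.04, -4.24 and -5.99 in controls and at 3.76, 2.35 and 3.40 after oviposition and rose by 7.59 ± 0.75. It was 1 of 3 raised among 54 genes (5.56%) described as metal transporters, heavy metal domain proteins or cation/H+ exchangers. The others were *ZIP5* (1.63 ± 0.30) and *ATCHX16* (1.54 ± 0.29). In this family 1 member was raised without control replicate 1, oviposition replicate 1 or 3, any egg extract library or both libraries that stood apart. *CAX3*, described as a cation exchanger, was not counted in it. *AAT1* (AT4G21120), an importer of basic amino acids, rose by 3.88 ± 0.45. The proton pump *AHA2* (AT4G30190) changed least among the named raised genes, from 6.86, 6.34 and 6.44 to 7.97, 7.73 and 8.22, and its call at an adjusted p of 0.0217 (limma) was kept only without control replicate 1, with adjusted p up to 0.0958. None was called among 46 genes described as ABC transporters and 98 described as major facilitator or sugar transporters. *ATPTR3*, described as a peptide transporter, was not counted among these.

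RING-type ubiquitin ligases, which mark proteins for degradation, had 4 of 266 members raised (1.5%), the share of all genes. These were *ATL41* (4.44 ± 0.53) with its neighbour *ATL40* (3.75 ± 0.54), AT5G53110 (3.36 ± 0.40) and *PUB36* (5.02 ± 0.88), and 2 members were raised without both libraries that stood apart. Of 1613 genes described as unknown protein, 20 were raised. Proteins described with a domain of unknown function (DUF) had 7 raised of 814 (0.86%), less than the share of all genes, and 4 without oviposition replicate 2. Among these, AT1G55790 had 0 reads in controls and 173 after oviposition, at least 56.4-fold higher against the floor of 3 counts over the group. *DMP1* (AT3G21520), a membrane protein known from senescing cells, was uneven, with -3.69, -4.24 and -3.63 in controls and 0.24, 3.58 and 0.84 after oviposition. AT3G18250, a putative membrane lipoprotein of no known role, had 1 of the 8 smallest adjusted p-values (0.0012), with -2.10, -1.15 and -0.96 in controls and 5.10, 4.35 and 3.68 after oviposition.

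**Figure D5:**
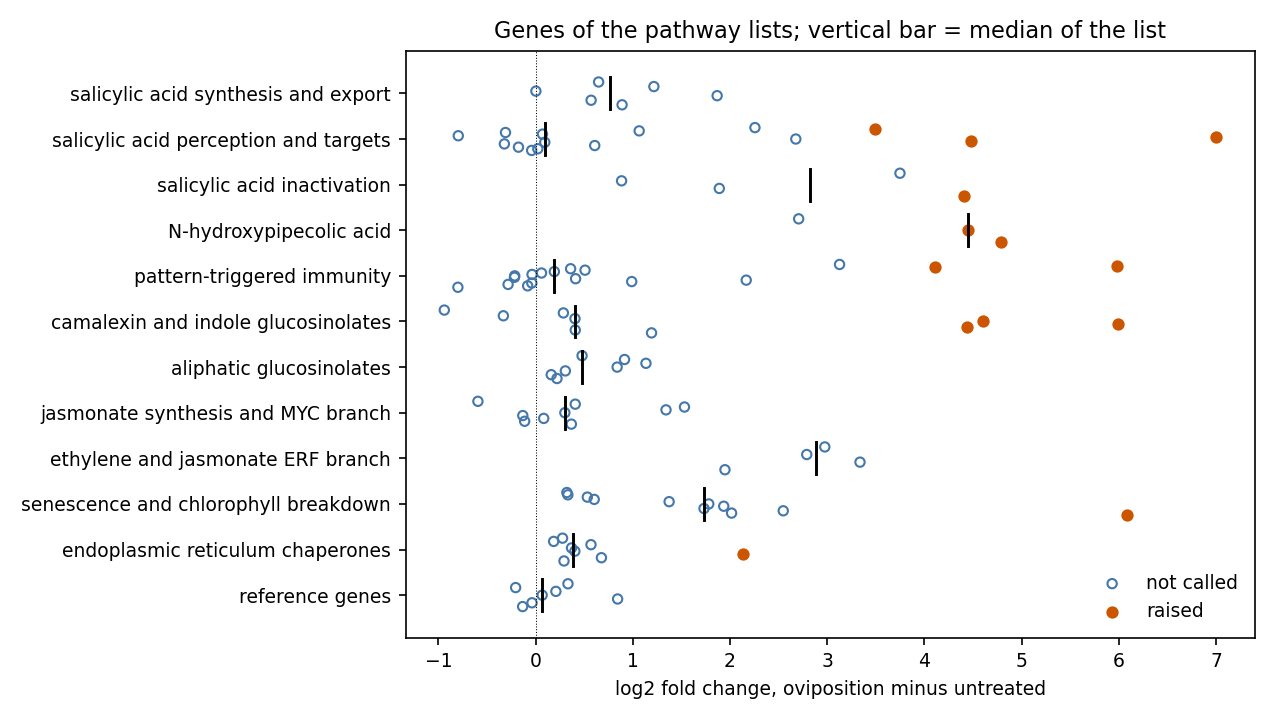
Log2 fold change, oviposition minus control (x axis), of each measured gene of the pathway lists (y axis), with raised genes filled in orange, all others as open blue circles and the median of each list as a vertical bar. The N-hydroxypipecolic acid list, whose 3 genes lay under 1 CPM in controls, has a median of 4.44, and the reference genes have a median of 0.07.

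Pathway genes were described with lists written from general knowledge, with earlier results of these data known. The share of raised genes in the whole table, 1.49%, stands beside the counts of every list. The table's filter bears on these counts too. Salicylic acid synthesis and export had 0 of 6 genes raised and a median of 0.77 (0.49 to 1.01), with all 6 higher. The key synthesis gene *ICS1* (AT1G74710) was at 4.36, 2.88 and 3.98 in controls and at 5.64, 3.91 and 4.35 after oviposition, so the groups overlapped. *PBS3*, the enzyme that joins glutamate to isochorismate, changed by 1.87 ± 0.43 (adjusted p = 0.0932). Among 15 genes of salicylic acid perception and its targets 3 were raised, *PR1*, *BGL2* and *WRKY62*, beside a median of 0.10 (0.01 to 0.81). *PR5*, an antifungal thaumatin-like protein, was at 5.06, 4.38 and 6.25 in controls and at 9.12, 6.48 and 8.11 after oviposition and did not pass the test. Of 4 genes of salicylic acid inactivation *DLO1* was raised, with a median of 2.82 (1.33 to 3.25). The N-hydroxypipecolic acid pathway, which makes a mobile signal of systemic acquired resistance, had 2 of 3 genes raised and a median of 4.44 (1.89 to 4.84). All 3 genes of this pathway lay under 1 CPM in controls, where 182 of 911 genes (20%) were raised. *ALD1* (AT2G13810), its first enzyme, was at -1.97, -3.76 and -3.63 in controls and at 1.22, 1.76 and 2.02 after oviposition, and *FMO1* (AT1G19250), its last, at -1.28, -2.48 and -2.48 and at 3.00, 2.44 and 1.65. They rose by 4.79 ± 0.59 and 4.44 ± 0.49 and kept their calls without any 1 library. No W-box core was found in the windows of *ALD1*, *FMO1* and *PAD3*, and 3 were found in that of *FRK1*.

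Most PTI genes did not pass the test. Of 17 genes *FRK1* and *YLS9* were raised, and the median was 0.19 (0.12 to 0.33). *FLS2*, the flagellin receptor, was at 6.16, 4.43 and 5.29 in controls and at 5.30, 2.84 and 5.35 after oviposition, and *WRKY33*, which controls camalexin genes, at 6.11, 5.62 and 5.42 and at 6.16, 5.94 and 5.62. Both overlapped between groups. The kinase *BIK1* (AT2G39660), which relays the signal of surface receptors, was at 3.45, 3.25 and 3.44 in controls and at 4.34, 4.22 and 4.54 after oviposition, so the groups did not overlap, but the change of 0.99 ± 0.21 had an adjusted p of 0.0614. The lectin receptor kinase *LecRK-I.8* (AT5G60280), known from the recognition of egg extract, was at -0.19, -1.93 and -0.63 in controls and at 1.15, 1.26 and 1.35 after oviposition, also without overlap (2.17 ± 0.49, adjusted p = 0.0806). In camalexin and indole glucosinolate synthesis *PAD3*, *CYP71A12* and *CYP71A13* were raised among 9 genes, while the upstream *CYP79B2* was at 4.68, 3.63 and 5.43 in controls and at 5.55, 6.03 and 5.75 after oviposition and did not pass the test. The median of the list was 0.41 (0.09 to 1.14). None of 7 aliphatic glucosinolate genes was called, although all 7 were higher with a median of 0.48 (0.45 to 0.69), *BCAT4* leading with 1.14 ± 0.33 (adjusted p = 0.223).

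Neither jasmonate list held a called gene. Of 9 genes of jasmonate synthesis and the MYC branch none was called, and their median of 0.30 was -0.55 without control replicate 2 and 1.19 without control replicate 3. *JAZ10* was at 1.42, -1.82 and 3.61 in controls and at 2.03, 2.62 and 3.15 after oviposition, a difference of 1.53 ± 1.21 (adjusted p = 0.998). The ERF branch had no call among 4 genes, with a median of 2.88 (2.00 to 3.03). *PDF1.2* was at 1.89, -0.75 and -1.40 in controls and at 2.67, 3.81 and 3.27 after oviposition, so the groups did not overlap, yet the change of 3.34 ± 0.93 had an adjusted p of 0.185. Near-identical copies of *PDF1.2* exist, so its reads are uncertain. Outside the lists, *ATJRG21* (AT3G55970), which the table describes as jasmonate-regulated and which was chosen after its values were seen, was raised by 3.56 and kept its call without any 1 library.

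In the list of senescence and chlorophyll breakdown genes, all 11 means were higher. The median was 1.73 and stayed between 1.27 and 1.85 with each library left out, but the study's marker *SAG13* was the 1 raised gene of the list. The separate family of 11 genes described as senescence-associated or dark-inducible had 9 higher and 2 lower means and a median of 1.07 (0.52 to 1.56). Its raised members were *SAG13* and *SRG1*, the latter with a rise of 4.19 ± 0.69. *ORE1*, a NAC regulator of leaf death, was at 2.91, 2.81 and 0.25 in controls and at 4.08, 4.77 and 4.77 after oviposition without passing the test. Genes of light harvesting and the photosystems gave no call among 79, with 70 lower and a median of -0.41. The median was -0.91 without oviposition replicate 1 and 0.13 without control replicate 3, the libraries that stood apart. Of 8 chaperones of the endoplasmic reticulum all were higher with a median of 0.39 (0.02 to 0.69, from without oviposition replicate 1 to without control replicate 3), and *BIP3* was raised by 2.14 ± 0.37 and lost its call without control replicate 1 or 3, oviposition replicate 1 or 2 or any egg extract library (adjusted p up to 0.0901). The 7 reference genes had a median of 0.07 (0.00 to 0.20), and *UBQ10* changed most, by 0.84 ± 0.49 (adjusted p = 0.901).

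In 28 families with 1684 genes no member was raised. Besides those already named, these included 48 cyclins and cyclin-dependent kinases (median -0.17, range -0.34 to -0.12, 36 lower), 32 kinesins and other microtubule motors (median -0.43, range -1.02 to -0.23, 30 lower), 38 histones (median -0.06), 142 F-box proteins (median -0.04), 229 pentatricopeptide repeat proteins (median 0.00) and 350 ribosomal proteins (median 0.22, 257 higher). The medians of the cyclins and kinesins were below 0 under every scaling and with each library left out, whereas those of the other groups changed sign for at least 1 library or scaling. All 9 JAZ repressors were without a call, with a median of 1.11 that was 0.01 without control replicate 2, 2.10 without control replicate 3 and 2.28 without both libraries that stood apart.

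A single gene was lowered. AT1G31690, a copper amine oxidase, which breaks down polyamines and releases hydrogen peroxide, was at 4.75, 3.99 and 5.34 in controls and at 1.55, 2.37 and 1.96 after oviposition, a fall of 2.73 on the log2 scale (SE 0.44, adjusted p = 0.0192). The call was lost without control replicate 1 or 3 or any 1 oviposition library (adjusted p up to 0.0836) and without both libraries that stood apart (adjusted p = 0.139). Other falls with groups that did not overlap were not called. The transposable element gene AT4G28900 came nearest, with 1.81, 0.96 and 1.86 in controls and -0.44, -1.48 and -0.43 after oviposition (-2.32 ± 0.46, adjusted p = 0.0502). The methyltransferase gene AT3G21950 changed by -2.05 ± 0.42 (adjusted p = 0.0576), AT5G02540, described as a protein with a NAD(P)-binding fold, by -2.04 ± 0.60 (adjusted p = 0.224), and the ABC transporter *ABCG5* by -1.88 ± 0.60 (adjusted p = 0.302). Without control replicate 2 there were 15 lowered genes.

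Raised genes were also found side by side in the table. Of the 263, 26 (9.89%) lay in 11 runs of genes that follow each other in the table, the longest being the 4 berberine genes. No share for other sets of genes was computed to set beside this. The *pEARLI 1* group and the run of AT1G51860, AT1G51890 and AT1G51920 held 3 genes each. Pairs included *GLR2.9* with *GLR2.8*, *ATL40* with *ATL41*, *UGT76E4* with *UGT76E3*, *ATMSRB8* with *ATMSRB9*, which repair oxidized methionine, and *AIG1* with AT1G33950 of the same avirulence-induced family. Most runs joined genes of 1 family, while *PME17* lay beside the auxin-responsive *SAUR36*, which rose by 2.45 ± 0.49.

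Without control replicate 3 and oviposition replicate 1 together, 66 of the 166 raised genes followed by name were no longer called. Their adjusted p lay between 0.0533 and 0.291 (limma). Among transcription factors these were *WRKY31*, *WRKY41*, *WRKY48*, *WRKY60*, *WRKY61*, *WRKY62*, *WRKY71*, *WRKY72*, *ANAC087*, *RAP2.6L*, *DREB19* and *ATMYB122*. Receptors and calcium genes among them were *AtRLP21*, *AtRLP39*, *AtRLP52*, *LECRK11*, *CML39*, *CML47*, *GLR2.9* and *CAX3*. Secreted defence proteins that lost their call were *ATOSM34*, *ATEP3*, AT5G43580, AT4G12500, *LCR78* and AT4G22230, and AT2G46150 and AT4G35170 did so in the NDR1/HIN1-like group. Peroxidases were affected in 6 genes, *Prx37*, *PER49*, *PER58*, *ATPA2*, *PRX33* and *PER71*. Among other enzymes these were *ATGSTU9*, *ATGSTU11*, AT1G26390, AT4G20860, *CYP71A13*, *CYP76C5*, *UGT71B5*, *UGT73B3*, *UGT76E3*, *UGT76E4*, *UGT76E12*, *UGT87A2*, the alternative oxidase *AOX1D*, the acyltransferase *ATGPAT1*, *ATMSRB8*, *ATMSRB9* and *CWINV1*. The others were *PUB36*, *ATL40*, *ZIP5*, *ATCHX16*, the efflux carrier *ATDTX1*, *AHA2*, *AGP1*, *BIP3*, *AIG1*, *MLO6*, *MLO12*, *PSK4*, AT1G13520, AT1G51920 and AT1G55790.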

How the data were processed

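RNA was sequenced from stranded poly(A) libraries of 3 control, 3 oviposition and 3 egg extract samples. The authors mapped reads with STAR to TAIR10, normalized the counts by the trimmed mean of M-values and library size, and deposited log2 CPM values, with 1 column per library. The submitters' processing notes name cutadapt 1.5, HTSeq, edgeR 3.4.0 and limma 3.2. The counting mode and strand setting, the filter that left 17605 genes and the scaling that gives every library the same median are not given in the sources used here, so overlapping and near-identical genes are uncertain. The authors' own fold changes and adjusted p-values were deposited as well and were not used.

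All 158445 values corresponded to whole reads plus 0.5, within 0.01 reads, given a size and a factor fitted per library, and these reads gave the depths, the ratios with exact 95% counting intervals and the voom alternative. The deposited values were fitted in limma 3.58.1 (R 4.3.3) with 1 mean per group over all 9 libraries and variances following the mean-variance trend, and the adjusted p is that of Benjamini and Hochberg across the whole table, with a threshold of 0.05. The model was tested on simulated data. Replicate numbers were checked as pairs by correlating deviations from group means. Figures were drawn with Python 3.11.15 and matplotlib 3.10.9.

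Members, families, lists and motifs were chosen with earlier results of these data known, and the family wording was corrected after members had been seen. Named are the 12 largest rises with groups that do not overlap, the lowered genes, the 5 largest such falls at a control level of at least 0, the 8 smallest adjusted p, the 8 highest raised levels, the raised members with the largest rise and highest level in each family with 3 or more of them and others where listed, and, in each pathway list, raised members and the largest change. Further genes outside these families and lists, and list members quoted for comparison, were chosen after their values were seen. Alternatives were no trend, only the 2 groups, the replicate number as a block, quantile normalization, median centring, 1 CPM added, a mean of at least 0, voom, stricter thresholds and leaving out each library. Weights per library, and leaving out control replicate 3 and oviposition replicate 1 together, were added after the data were seen. Gene spans of the table were compared with the RefSeq TAIR10.1 annotation before promoters were read. All 17512 genes compared overlapped on the same chromosome, and 40.4% shared a start or an end.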

Additional observations from a re-analysis of the deposited data

How the results depend on the processing

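The number of raised genes was 263, of lowered genes 1, of changed genes 264 and of families with 3 or more raised members 23. With each library left out in turn, these numbers ranged from 114 to 318, from 0 to 15, from 114 to 333 and from 10 to 25. With egg extract libraries left out of the model altogether they were 54, 0, 54 and 1, with quantile normalization 162, 2, 164 and 15, with voom on the recovered reads 67, 0, 67 and 2, and at an adjusted p under 0.01 they were 100, 0, 100 and 7. The number of such families was 15 with 1 CPM added and 15 with a filter on a mean of at least 0. The number of lowered genes was 4 without the mean-variance trend, 2 with median centring, 2 with 1 CPM added, and 0 with weights per library or without control replicate 3 and oviposition replicate 1, the last 2 settings having been added after the data were seen. The cause of these differences was not tested beyond the settings themselves. With the replicate number as a block, 376 genes were raised, of which 254 were among the 263, 11 were lowered, and 30 families had 3 or more raised members. The numbers did not pair the samples, since deviations of same-numbered libraries correlated at 0.0226, 0.674 and -0.157. Deviations of control replicate 1 and oviposition replicate 3 correlated at 0.435, and those of control replicate 3 and oviposition replicate 1 at 0.608. The other pairs with unlike numbers had negative correlations. A pairing other than by number was not fitted, so shared experiments across the groups are not accounted for. Over all settings 38 genes (14.4%) were raised in every planned one. The median change of all genes moved by less than 0.1. Genes with few reads in controls have fold changes set in part by the added 0.5 reads, and 23 raised genes had 3 or fewer reads in all controls together.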

Other observations

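Several raised genes outside the families above concern calcium export, lipid polyesters and peptide signals, and all were chosen after their values were seen. *CAX3*, a vacuolar calcium/proton exchanger, was at 1.76, 0.31 and -0.12 in controls and at 5.68, 4.96 and 7.06 after oviposition, a rise of 5.25 ± 0.67 (adjusted p = 0.00692, limma). *ACA12*, a calcium pump of the plasma membrane, rose by 4.83 ± 0.41 (adjusted p = 0.002) from -1.85, -0.47 and -1.84 to 3.23, 3.37 and 3.73. Both kept their call without any 1 library, and without control replicate 3 and oviposition replicate 1 the adjusted p was 0.0679 for *CAX3* and 0.016 for *ACA12*. *GLP9*, a germin-like protein of the cell wall, rose by 6.84 ± 0.74 from below -3.3 in every control to 2.42, 3.14 and 1.41 and also kept its call. *GPAT5*, an acyltransferase of suberin synthesis, was at -4.17, -3.76 and -5.99 in controls and at -0.55, 2.98 and 2.96 after oviposition, so oviposition replicate 1 was far below the other treated libraries. It rose by 6.44 ± 1.02 and lost its call without oviposition replicate 2 or 3 (adjusted p up to 0.0943). AT5G12420, of the wax synthase family, rose by 3.02 ± 0.55 and lost its call without 6 libraries (adjusted p up to 0.148).

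*MLO6* and *MLO12*, membrane proteins whose loss makes leaves resistant to powdery mildew, rose by 1.54 ± 0.28 and 2.53 ± 0.43. *MLO6* was at 1.10, 1.27 and 1.60 in controls and at 2.80, 3.18 and 2.61 after oviposition, and it kept its call only without control replicate 3, while *MLO12* lost its call without 6 libraries. *PSK4*, a precursor of the peptide hormone phytosulfokine, rose by 2.34 ± 0.37 from 2.75, 2.15 and 2.80 to 4.54, 5.36 and 4.83 and lost its call without oviposition replicate 2 or 3 (adjusted p up to 0.086). *CWINV1*, an invertase that splits sucrose in the cell wall, was at 3.56, 1.72 and 3.32 in controls and at 5.74, 5.32 and 5.65 after oviposition, and its call was lost without any 1 oviposition library (adjusted p up to 0.092). *GH3.2*, which joins amino acids to auxin, rose by 3.05 ± 0.33 from -1.002, -1.72 and -1.40 to 1.31, 2.05 and 1.68 and kept its call without any 1 library.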
